A study of Mus musculus with 8 samples.

Results

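The cells described here are 58 basal cells of the mouse mammary gland, taken from libraries 2 and 4 of plates 1 and 2. The series has 768 wells, of which 114 were kept as cells because they held at least 1500 transcripts and at least 500 genes. A kept well of libraries 2 and 4 counted as basal where the transcripts of Acta2, Tagln, Myl9, Krt5 and Krt17 summed to at least 3. That sum also had to exceed the sum of Krt8, Krt18 and Krt19, keratins of luminal cells, and the sum of Pecam1, Cdh5, Kdr and Fabp4, markers of blood vessel lining cells. Of the 384 wells of these 4 libraries, 68 were kept and 58 met the rule. Plate 1 gave 4 cells in library 2 and 5 in library 4, and plate 2 gave 31 cells in library 2 and 18 in library 4. The rule read these genes, so their levels are descriptions. They stayed in the tables of genes tested, and no test result is given for them.

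Ducts, together with the terminal end buds at which they grow, had been dissected from mouse mammary glands at 5 weeks of age, dissociated and sorted live into plates. The strain is given as "mixed" for every library, and the labels name no genotype and no treatment. They do not say which libraries hold ducts and which hold end buds, whether libraries share animals, or what sets the library numbers apart. Comparisons between libraries therefore measure a spread that may be technical.

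Basal, or myoepithelial, cells form the outer layer of the mammary epithelium and lie on the basement membrane. They combine keratins of stratified epithelium (Krt5, Krt14, Krt17) and the transcription factor Trp63 with the contractile proteins of smooth muscle. When oxytocin binds its receptor Oxtr, these cells contract and squeeze milk from the alveoli. They also make laminins and type IV collagen, the main proteins of the basement membrane under them.

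The 58 cells held 1090724 transcripts, with a median per cell of 9522.5 and 6956 in libraries 2 and 4 of plate 1 and of 21255 and 16788.5 in those of plate 2. Just inside the size limit lay cells of 1664 and 1955 transcripts, and just outside it wells of 1477 and 1249. The well number is the cell barcode, and the 58 cells used 49 well numbers, of which 9 occurred in more than 1 library, for 18 cells. Of the 10 kept cells of libraries 2 and 4 outside the rule, 8 came from plate 1 library 2 and 2 from plate 1 library 4. On plate 2 every kept well of both libraries met the rule. Random tags of 4 bases limit how many molecules of a gene can be told apart in a cell. Rn45s used 50% of the tags or more in 30 cells, Eef1a1 in 26 and Acta2 in 21, and no gene used every tag.

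All 58 cells carried transcripts of Acta2, the smooth muscle alpha-actin. Levels are given as transcripts per 10000 transcripts of the cell or of the library's summed cells, and are not corrected for gene length. In single cells of plate 1 library 2, Acta2 stood at 1.48, 8.07, 54.1 and 89.2, and in library 4 at 15, 35.8, 57.5, 74.3 and 88. On plate 2 the lowest, median and highest cells were at 33.5, 85.7 and 175 in library 2 and at 23.9, 107 and 182 in library 4. The 4 libraries overlapped, and the lowest cells on plate 1 lay under the lowest of plate 2. Tagln, the actin-binding protein transgelin, was found in 56 of 58 cells, Myl9, the regulatory light chain of myosin, in 54, Krt5 in 51 and Krt17 in 47. Trp63, which the rule did not read, was found in 49 of 58 cells. Its median per cell was 1.58 and 1.44 in libraries 2 and 4 of plate 1 and 2.07 and 1.95 in those of plate 2, and 3 to 27 cells per library carried it.

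**Figure D1:**
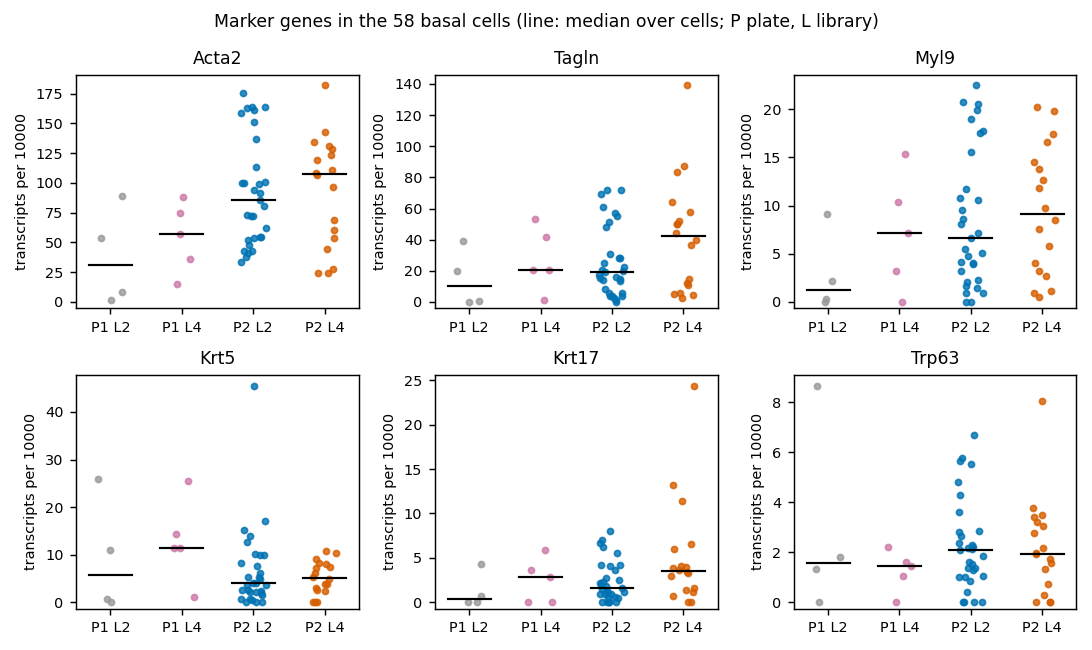
Transcripts per 10000 in each basal cell for 5 genes that the rule read and for Trp63, which it did not read, by plate (P) and library (L), each point a cell and each line the median over cells. Acta2 medians on plate 2 are 85.7 and 107, cells of every library overlap, and plate 1 library 2 holds a pair of cells at 1.48 and 8.07.

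Cells of plate 1 library 2 did not all bear out the label. The cell in its well 63 held 4 marker transcripts among 13553, with Krt14, Krt17 and Trp63 at 0. The same cell had 90.02 per 10000 for the list of nerve and Schwann cell genes and 75.3 for the fibroblast list, and 658 for immediate early genes, with 219 transcripts of Fos. Its ribosomal protein genes stood at 192 per 10000, against 1049 to 1936 in the other 3 cells of the library. The cell in well 64 was the largest of the library with 29724 transcripts, of which 27 were markers, and it carried 162 per 10000 of cell cycle genes. Both cells weigh on the sum of this library. Acta2 was 18.7 per 10000 in the sum of 4 cells, 24.6 without well 63, 32.1 without well 64 and 73.2 in the other pair of cells. Plate 1 library 4 also leaned on few cells. Its well 86, with Acta2 at 88, held 54770 of the 98612 transcripts of its basal cells. Its well 51, with 28744 transcripts, had Acta2 at 15 and Tagln at 1.04, with Myl9, Krt14 and Oxtr at 0. Krt17 stood at 5.91 and Trp63 at 1.04 in that cell. Levels of library 4 without these cells are not given here.

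Genes of other cell types were few outside plate 1 library 2. Some of these genes also belong to basal cells: Sox10 stands in the nerve and Schwann list and in the basal transcription factor list. Per 10000 transcripts, the fibroblast list held 3.75 to 4.12 in 3 libraries and 22.9 in plate 1 library 2, where it was 5.02 without well 63. The nerve and Schwann cell list held 4.32 to 4.92 in 3 libraries and 25.5 in plate 1 library 2, or 3.51 without that cell. The endothelial list ranged from 0.136 to 1.69 with Cdh5, Cldn5, Emcn and Eng at 0, and 8 of its 12 genes had a transcript. The rule read Pecam1, Cdh5, Kdr and Fabp4 of this list and Krt8, Krt18 and Krt19 of the luminal list. Low values of these genes are therefore partly set by the choice of cells. The pericyte list ranged from 0.613 to 1.05 with Rgs5 and Kcnj8 at 0. Macrophage genes reached at most 0.256, with 8 of 11 at 0, among them Ptprc, Csf1r, Lyz2 and Cd74. Lymphocyte genes reached at most 0.171 with 5 of 7 at 0, and adipocyte genes at most 1.12 with Plin1 at 0. None of the 6 red blood cell genes in the table had a transcript, which allows up to 0.0275 per 10000 over all 58 cells, counting error only. Beta-s, a beta-globin line outside that list, had 23, 12, 2 and 1 transcripts in the 4 libraries. The luminal list held 15.5 to 26.03 per 10000, led by Csn3, a milk casein, with 583 transcripts, Mfge8 with 539 and Lcn2 with 459, against 227 for Krt8. In 47 of the 58 cells the luminal list reached 10 or more transcripts. The 41 luminal keratin cells of libraries 1 and 3, of which libraries 2 and 4 have 0, held 270 per 10000 of this list. Basal and luminal cells come from different libraries, so cell type and library cannot be told apart there.

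The most abundant gene was Rn45s, the ribosomal RNA precursor, with a mean over libraries of 192 ± 88.8 per 10000 (SD, n = 4). It ranged from 117 in plate 2 library 2 to 320 in plate 1 library 2. The next genes were Eef1a1, the elongation factor that brings tRNA to the ribosome, at 83.3 ± 11.8, and Acta2 at 62.0 ± 30.5 (SD, n = 4 each). Without plate 1 library 2, Acta2 averaged 76.5 ± 12.1 (SD, n = 3). The cytoskeletal actins Actb and Actg1 followed at 48.9 ± 7.65 and 42.9 ± 8.43, close copies whose reads could be split between them (SD, n = 4). Tpt1, a growth-linked protein, stood at 46.8 ± 7.46, and Malat1, a nuclear RNA, at 41.8 ± 12.5 (SD, n = 4). Sparc, a matrix protein that binds collagen, reached 30.5 ± 11.49 and Col4a1, the first chain of type IV collagen, 19.9 ± 10.8 (SD, n = 4). The Sparc value of plate 1 library 2 was 46.4 with the cell in well 63 and 20.6 without it. Over the 4 libraries Acta2 was lowest in plate 1 library 2 at 18.7 and then 62.7, 85.2 and 81.5 in plate 1 library 4, plate 2 library 2 and plate 2 library 4.

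The 25 most abundant genes without ribosomal protein genes and pseudogenes held the contractile genes Acta2, Tagln and Myl6, the matrix genes Sparc and Col4a1, and the secreted Igfbp5 and Crispld2. Igfbp5, which binds insulin-like growth factors, was at 13.7, 14.9, 16.4 and 27.6 per 10000 in the 4 libraries in the order above. In the luminal keratin cells it averaged 28.7 over libraries, from 4.61 to 53.5, so its level is not particular to basal cells. Crispld2, a secreted protein, was at 8.62, 24.54, 32.7 and 20.4. The immediate early transcription factors Fos and Egr1 stood at 28.8 ± 9.16 and 23.2 ± 4.69 (SD, n = 4). The Fos value of plate 1 library 2 was 41.6 with the cell in well 63 and 0.753 without it. Chaperones were present as Hsp90ab1 at 31.7 ± 2.07 and Hspa8 at 24.1 ± 4.05, and the lipid carrier Apoe stood at 25.8 ± 3.53 (SD, n = 4). The 91 ribosomal protein gene lines together made 1441 per 10000, and 61 of the 100 most abundant genes were of this kind. In all, 13338 genes had a transcript, 634 genes made 50% of the transcripts, and 53 genes were found in all 58 cells, 27 of them ribosomal.

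**Figure D2:**
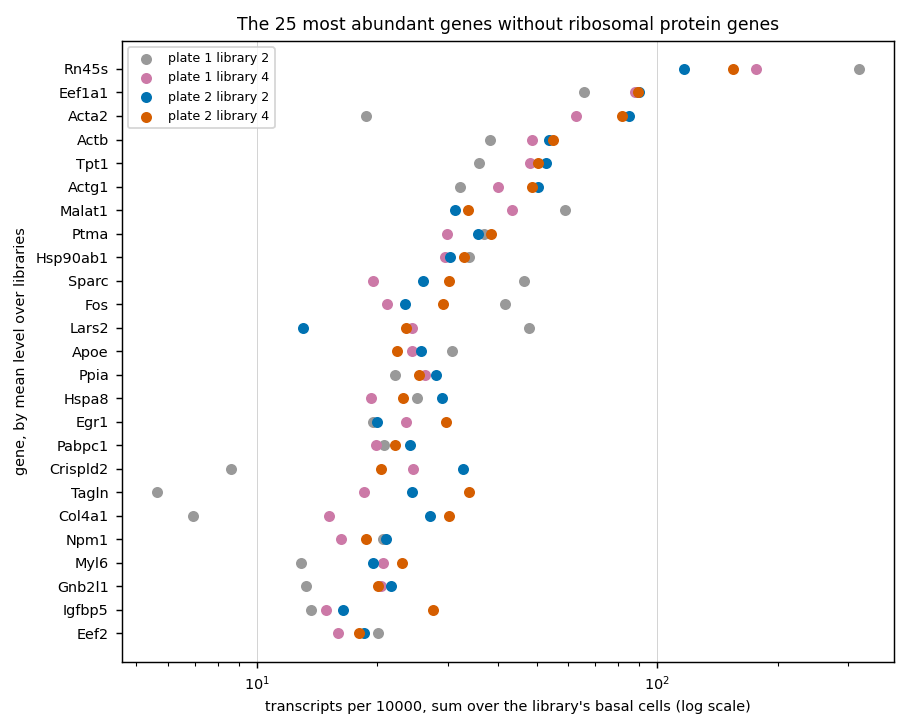
Level of the 25 most abundant genes without ribosomal protein genes, as transcripts per 10000 over the summed basal cells of each library on a log scale, with 1 point per library. Acta2, Tagln, Crispld2 and Col4a1 are lowest in plate 1 library 2, at 18.7, 5.62, 8.62 and 6.93, and Rn45s, Sparc, Fos and Lars2 are highest there. Without the cell in well 63 of that library, its Sparc is 20.6 and its Fos 0.753.

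The contractile and actin-binding list without the rule's genes held 76.6, 117, 127 and 148 per 10000 in the 4 libraries, and all of its 22 genes in the table had a transcript. Tpm1, a tropomyosin that runs along actin filaments, averaged 11.7 ± 3.73, Myh11, the smooth muscle myosin heavy chain, 8.44 ± 3.48, and Mylk, the kinase that switches this myosin on, 7.43 ± 3.39 (SD, n = 4). Cald1, which holds actin and myosin apart, was at 7.71 ± 0.857, and Cnn1, calponin, at 2.99 ± 1.77 (SD, n = 4). Oxtr was found in 45 of 58 cells at 3.01 ± 0.935 (SD, n = 4). The 41 luminal keratin cells, at 629618 transcripts in all, held 19 transcripts of Oxtr, 2 of Mylk, 1 of Myh11 and 1 of Cnn1.

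Krt5 stood at 3.56, 8.82, 5.45 and 5.12 per 10000 in the 4 libraries, Krt17 at 0.749, 3.95, 2.52 and 5.54, and Krt14, the usual partner of Krt5 in the filament, at 0.936, 2.43, 2.01 and 4.77. Krt14 was found in 36 of 58 cells and Krt15 in 22. Of the genes that attach cells to the basement membrane, Dst, a plakin of the hemidesmosome, averaged 6.27 ± 2.58, Itgb1 5.83 ± 0.663 and Itga6 3.34 ± 0.764 (SD, n = 4). Itgb4, the partner of Itga6 in hemidesmosomes, was found in 18 of 58 cells, at 2.81, 1.12, 0.239 and 0.0853 in the 4 libraries.

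The basement membrane list held 71.6 to 115 per 10000, with all of its 16 genes detected. Beside Sparc and Col4a1 it was led by Col4a2 at 11.53 ± 5.04, by Serpinh1, a collagen chaperone, at 6.36 ± 1.57, and by the laminin chains Lamc1 at 4.82 ± 2.64, Lama1 at 4.65 ± 2.13 and Lamb1 at 4.19 ± 0.823 (SD, n = 4). The interstitial matrix list held 17.1 to 31.6. Its largest gene was Vcan, a proteoglycan, at 5.27 ± 1.64, followed by Fstl1 at 3.79 ± 0.927 (SD, n = 4). Thbs1 was at 0 and 0.608 on plate 1 and at 4.82 and 7.84 on plate 2. Col1a2, a fibroblast collagen, was at 12.7 in plate 1 library 2, 0.251 there without well 63, and at most 0.142 in the other libraries.

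Transcription factors of the basal list held 40.5 to 51.4 per 10000. They were led by Nfib at 17.8 ± 2.44, followed by the immediate early factor Egr2 at 5.49 ± 3.05, Id4, an inhibitor of helix-loop-helix factors, at 4.31 ± 1.01 and Sox10 at 3.87 ± 0.208, with Trp63 at 2.02 ± 0.370 (SD, n = 4). Secreted signals and receptors held 57.1 to 79.8. Beside Igfbp5 the chemokine Cxcl14 stood at 6.37, 8.11, 10.3 and 10.8 in the 4 libraries, Igfbp2 at 3.80 ± 2.33, the cytokine Il17b at 3.56 ± 1.31 and Igfbp3 at 3.23 ± 0.810 (SD, n = 4). Cxcl14 was found in 56 of 58 basal cells, and the luminal keratin cells held 1 transcript of it. The Notch ligands Jag1 and Jag2 were at 0.668 ± 0.396 and 0.453 ± 0.242, and Lgr5, a Wnt-pathway receptor, at 0.697 ± 0.320 (SD, n = 4). Procr had 1 transcript in 58 cells.

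Some genes varied between cells of the same library by more than counting noise alone would give. Each cell of plate 2 was thinned to 1500 transcripts, and the variance over cells was divided by the mean, a ratio called the Fano factor that is 1 for counting noise alone. The median over the 388 genes with a mean of at least 0.5 was 1.24 over the 31 cells of library 2 and 1.204 over the 18 of library 4. A factor of at least 2 in both libraries was reached by 17 genes. Acta2 had 3.52 and 6.35 in libraries 2 and 4, Tagln 3.94 and 7.12, Igfbp5 4.15 and 4.53, Myh11 2.45 and 3.43, and Crispld2 2.62 and 4.29. The early response genes Cyr61, Egr1 and Fos had 3.41 and 4.76, 2.42 and 2.57, and 3.58 and 2.11. In wells 25 to 72 alone, a block described further on, the factors were 3.23 and 1.56 for Acta2, 2.89 and 3.91 for Tagln and 2.43 and 1.501 for Igfbp5. Myh11 had 1.24 and 0.852 there, Crispld2 1.97 and 0.850, Cyr61 2.29 and 3.81, Egr1 2.92 and 1.10, and Fos 1.68 and 1.94. Of these 8 genes, Tagln and Cyr61 were the ones above 2 in both libraries in those wells.

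The first places by the lower of both factors were held by Malat1 at 24.4 and 7.92 and by Kcnq1ot1, another nuclear RNA, at 6.99 and 6.77. Shallow cells carried much of these values. The cell in well 47 of library 2, with 1664 transcripts, held 553 Malat1 and 180 Kcnq1ot1 transcripts per 10000. Well 80 of library 4, with 3735, held 257 and 153. The medians over cells were 27.2 and 41.5 for Malat1. Among cells of 4000 or more transcripts, 29 and 15 in number, the factors of Malat1 were 5.95 and 2.68 and those of Kcnq1ot1 1.24 and 0.429. Those of Acta2 were 3.30 and 3.89 there, of Tagln 3.01 and 3.54, of Cyr61 2.08 and 2.48, of Egr1 1.67 and 1.42, and of Fos 3.39 and 1.10.

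Acta2 was the gene with the most close companions across cells, pairs with a pseudogene line left out. Pearson's r between genes was computed on log2 of 1 plus the level per 10000, over the 31 cells of plate 2 library 2 and separately over the 18 cells of library 4, for 3218 genes found in at least 50% of the cells of both. Cells of a library share its depth and handling, and the r values are descriptions of these cells. The median r over all pairs was 0.042 and 0.049. With 20 genes Acta2 had r of at least 0.6 in both libraries. Without pairs that hold a pseudogene line, this was the most of any gene. Tagln followed with 18, and Mylk, Rpl4 and Rps3a1 with 17 each. Of 1290 pairs at this level, 29 joined genes of the contractile list and the 6 markers, out of 300 such pairs, or 9.67%, against 0.0249% of all pairs. The rule read all of these markers but Trp63. The contractile list alone, without the markers, had 13 of its 171 pairs at this level. Other basal markers had lower values with Acta2: Krt5 had r of 0.55 and 0.42, Krt17 0.49 and 0.41, and Trp63 0.04 and −0.13.

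The partners of Acta2 spanned filament, motor, receptor and matrix. Its r in libraries 2 and 4 was 0.88 and 0.90 with Tagln, 0.82 and 0.91 with Mylk, 0.82 and 0.85 with Myh11, and 0.90 and 0.79 with Cnn1. Outside the contractile list they were joined by Igfbp5 at 0.76 and 0.79, Postn, a matrix protein of the periosteum and of stroma, at 0.80 and 0.74, Il17b at 0.76 and 0.72 and Krt14 at 0.75 and 0.65. With Oxtr, r was 0.78 and 0.79. Synm, an intermediate filament protein of muscle, had 0.78 and 0.75. The general actin Actb had r of only 0.10 and 0.04 with Acta2, and Cxcl14 −0.01 and 0.01. Cxcl14 with Krt5 had opposite signs in the libraries, 0.48 and −0.61. Thinned to 4000 transcripts, leaving out shallower cells (29 and 15 cells left), r was 0.80 and 0.80 for Acta2 and Tagln, 0.83 and 0.78 for Acta2 and Myh11, and 0.64 and 0.58 for Acta2 and Oxtr.

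**Figure D3:**
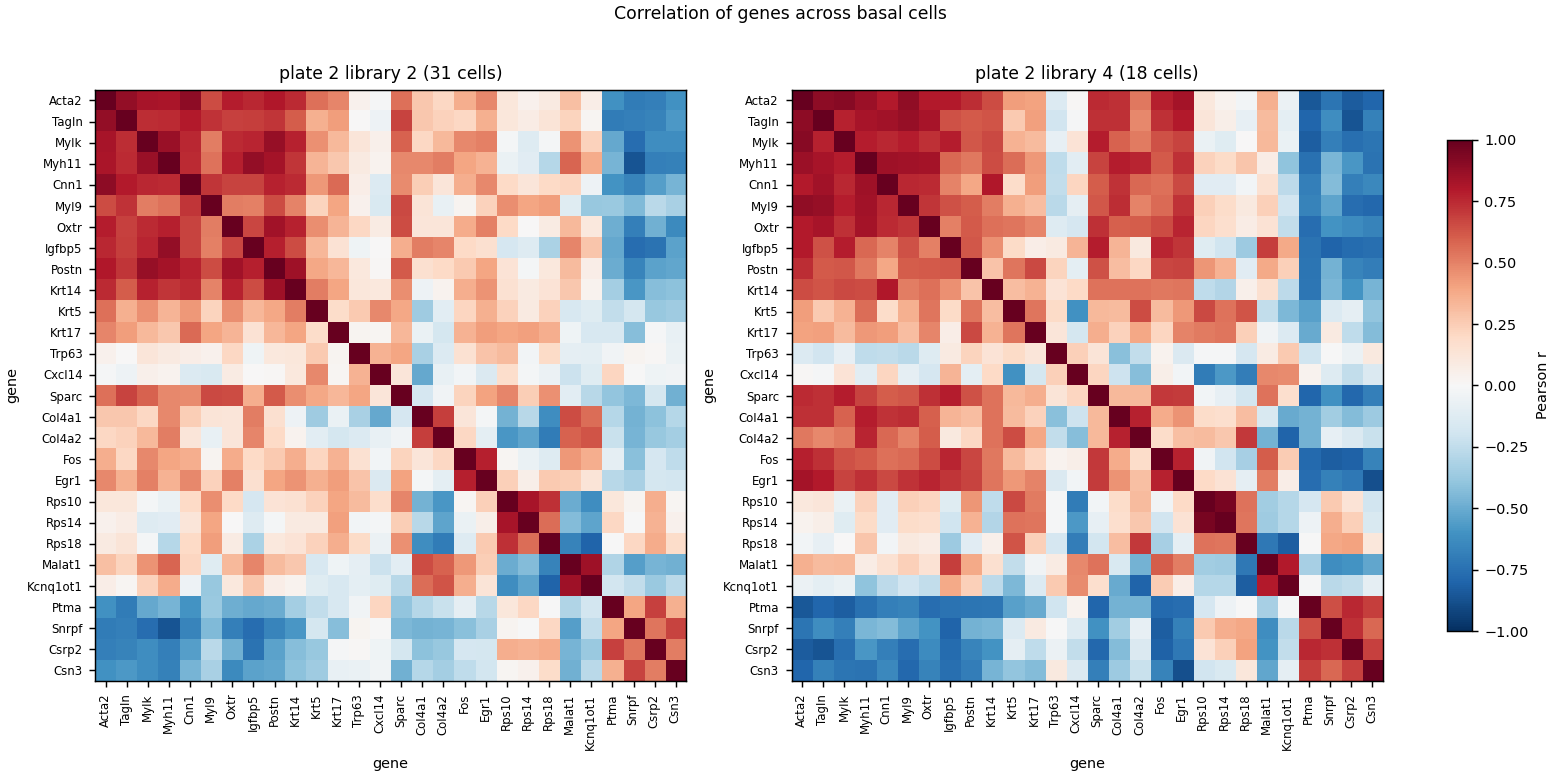
Pearson's r across basal cells of plate 2 library 2 (31 cells, left) and library 4 (18 cells, right) for 28 genes, with blue for negative and red for positive values. The block from Acta2 to Krt14 is red in both libraries, Trp63 and Cxcl14 are pale against it, and Ptma, Snrpf, Csrp2 and Csn3 are blue against it.

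Other genes ran against Acta2 in both libraries. Snrpf, a core protein of the spliceosome, had r of −0.70 and −0.73 with Acta2, Csrp2, a LIM domain protein, −0.68 and −0.83, Ptma, prothymosin alpha, −0.61 and −0.84, the imprinted gene Mest −0.62 and −0.63, and Csn3 −0.61 and −0.79. Igfbp5 and Snrpf had −0.76 and −0.80. Crispld2, among the most abundant genes, had −0.63 and −0.52 with Acta2. These values were nearer to 0 within blocks of well numbers, which are described next. After centring within the blocks, r with Acta2 was −0.46 and −0.40 for Snrpf, −0.27 and −0.40 for Csrp2, −0.32 and −0.27 for Ptma, −0.19 and −0.51 for Mest, −0.49 and −0.66 for Csn3 and −0.29 and −0.43 for Crispld2. In wells 25 to 72 alone it was −0.38 and −0.49 for Snrpf, −0.13 and 0.06 for Csrp2, −0.37 and −0.07 for Ptma, 0.09 and 0.11 for Mest, −0.48 and −0.03 for Csn3 and −0.49 and 0.09 for Crispld2. In all, 280 pairs of genes had r of −0.6 or lower in both libraries.

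The order of wells ran along the same division on plate 2. A split at wells 24 and 72 was chosen after the values were seen, and its meaning is not given in the labels. In wells 1 to 24 the 13 cells of library 2 had Acta2 from 33.5 to 94.0 per 10000 with a median of 51.7, and the 5 cells of library 4 had 23.9 to 69.1 with a median of 27.3. In wells 25 to 72 the 16 cells of library 2 had 54.1 to 175 with a median of 107, and the 11 cells of library 4 had 96.6 to 182 with a median of 124. The ranges overlapped in library 2 and did not in library 4. The 2 cells of wells 73 to 96 had 99.8 and 163 in library 2, and 53.5 and 60.7 in library 4.

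The other genes of the group followed the same wells. In summed cells of library 2, Oxtr was 0.679 in wells 1 to 24 and 4.87 in wells 25 to 72, and in library 4 it was 0.191 and 8.21. Myh11 was 1.77 and 19.6 in library 2 and 2.73 and 21.8 in library 4, Igfbp5 2.04 and 33.8, and 3.75 and 44.5, and Postn 0.0295 and 5.80, and 0.635 and 9.31. Krt14 was found in 4 of 13 cells and 11 of 16 in library 2, and in 2 of 5 and 10 of 11 in library 4. Crispld2 ran the other way, at 42.8 and 19.2 in library 2 and 36.3 and 7.77 in library 4, as did Csn3 at 4.63 and 0.466, and 21.7 and 0.827. Trp63 was 2.24 and 2.67 in library 2 and 1.65 and 2.59 in library 4.

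Other readouts moved with the wells as well. Cells of wells 1 to 24 were deeper, with a median of 22009 transcripts against 11284.5 in wells 25 to 72 of library 2 and of 33737 against 14915 in library 4. With the total of the cell held fixed, the partial r of Acta2 and Tagln was 0.89 and 0.89. Immediate early genes were at 125.5 and 199 per 10000 in the sums of library 2 and at 107 and 253 in those of library 4, wells 1 to 24 first, and cell cycle genes at 60.9 and 29.3, and 59.5 and 26.3. The luminal list was 16.9 and 17.7 in library 2 and 33.7 and 19.9 in library 4, with cells from 4.08 to 61.8. The basement membrane list was 89.2 and 135 in library 2 and 82.4 and 145 in library 4. The fibroblast list was 2.45 and 5.38 in library 2 and 1.59 and 5.73 in library 4, with 12.7 and 12.3 in wells 73 to 96. The interstitial matrix list was 17.7 and 36.5 in library 2 and 18.2 and 42.9 in library 4. The pericyte and vascular smooth muscle list was 0.649 and 0.593, and 0.318 and 1.71. The nerve and Schwann list was 5.37 and 4.32, and 5.02 and 3.80. The part of these readouts in the contractile pattern was not tested. The plate 2 libraries share 7 well numbers among their cells.

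**Figure D4:**
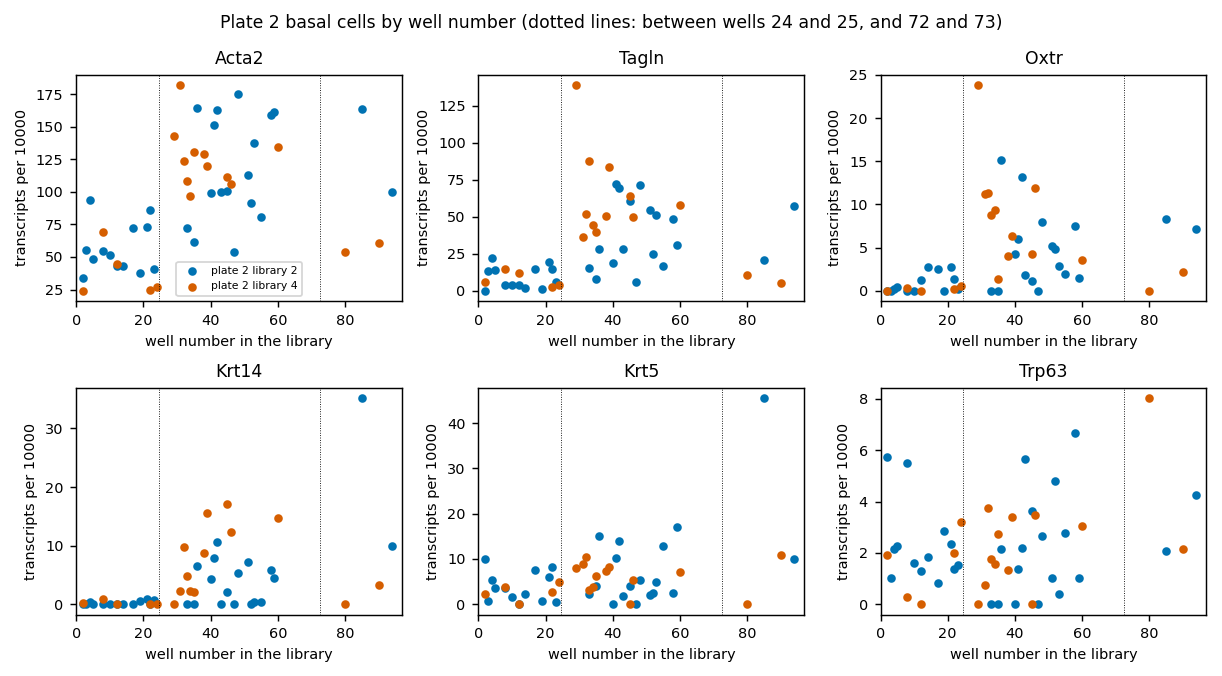
Transcripts per 10000 in each basal cell of plate 2 against its well number, for 6 genes, with library 2 in blue, library 4 in orange and dotted lines between wells 24 and 25 and between wells 72 and 73. Acta2, Tagln, Oxtr and Krt14 are low in wells 1 to 24 of both libraries, with Acta2 medians of 51.7 and 27.3 there and of 107 and 124 in wells 25 to 72.

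Centring within the blocks of wells made the correlations of Acta2 named here smaller, most of all in library 4. In wells 25 to 72 alone they stayed high in library 2 and not in library 4. After each library was centred within wells 1 to 24, 25 to 72 and 73 to 96, r was 0.77 and 0.47 for Acta2 and Tagln, 0.64 and 0.61 for Acta2 and Mylk, 0.60 and 0.46 for Acta2 and Myh11, and 0.78 and 0.24 for Acta2 and Cnn1. It was 0.67 and 0.07 for Acta2 and Oxtr, and 0.65 and −0.03 for Acta2 and Krt14. The pairs of the contractile list and markers at 0.6 or more in both libraries went from 29 to 1 of 300, or from 9.67% to 0.333%. Among all genes such pairs went from 1290 to 1040, or from 0.0249% to 0.0201%. In wells 25 to 72 alone, the 16 cells of library 2 had r of 0.84 for Acta2 and Tagln, 0.82 for Acta2 and Oxtr and 0.83 for Acta2 and Postn. The 11 cells of library 4 gave −0.10, 0.07 and 0.52.

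Promoters of the genes that moved with Acta2 were read for the CArG box, the sequence that serum response factor binds in smooth muscle genes: CC, then A or T at each of the middle positions, then GG, 10 bases in all. This pattern reads the same on both strands. RefSeq promoter entries of GRCm38.p6 matched 13 of the 21 genes made up of Acta2 and its 20 partners, and the 250 bases before the start were searched. Of the 13, 2 held the box, Myl9 and Vcl, the latter the adhesion protein vinculin. That is 15.4%, against 1.67% of 2456 genes of the correlation table with an entry and 1.62% of all 27025 genes. A box with a single G or C in the middle was found in 3 of the 13, Acta2, Synm and Myl9, or 23.1%, against 7.74% of the table's genes and 8.33% of all genes. Of the contractile and actin-binding list, 20 of 23 genes had an entry, with the exact box in 3, or 15%, and the box with a single G or C in 0. The partners were picked by their correlation, so these shares are descriptions. The stretches around the boxes of Acta2, Myl9 and Vcl are shown because they hold the matches among contractile and adhesion genes of the group, with the box in capitals.
Acta2, box with a single G or C, 84 bases before the start, chr19:34255423-34255482, minus strand: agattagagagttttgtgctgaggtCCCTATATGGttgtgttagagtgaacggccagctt
Acta2, box with a single G or C, 34 bases before the start, chr19:34255374-34255432, minus strand: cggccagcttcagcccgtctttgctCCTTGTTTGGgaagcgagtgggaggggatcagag
Myl9, exact box, 161 bases before the start, chr2:156775278-156775337, plus strand: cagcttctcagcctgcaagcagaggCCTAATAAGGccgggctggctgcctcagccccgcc
Myl9, box with a single G or C, 99 bases before the start, chr2:156775340-156775399, plus strand: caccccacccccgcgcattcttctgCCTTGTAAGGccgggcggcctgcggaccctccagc
Vcl, exact box, 227 bases before the start, chr14:20929148-20929205, plus strand: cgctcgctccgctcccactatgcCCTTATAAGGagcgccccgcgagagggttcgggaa

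Fixed lists differed in how far their genes varied together. The contractile list had a median r over its pairs of 0.29 and 0.26 in libraries 2 and 4, and 0.24 and 0.06 after centring within well blocks. The ribosomal protein genes had 0.43 and 0.32, oxidative phosphorylation 0.36 and 0.30 and immediate early genes 0.37 and 0.18. After centring these were 0.39 and 0.17, 0.26 and 0.19, and 0.42 and 0.06. Thinned to 4000 transcripts, the contractile list had 0.22 and 0.27, ribosomal protein genes 0.15 and 0.08, oxidative phosphorylation 0.06 and 0.03 and immediate early genes 0.27 and 0.17, beside −0.0027 and −0.0073 over all genes. In all cells without thinning, keratins and adhesion genes had 0.02 and 0.12, basement membrane 0.07 and 0.09, and basal transcription factors −0.03 and 0.09, beside 0.04 and 0.05 over all genes. The lists that define the basal identity by keratins, hemidesmosomes or transcription factors had medians near that of all genes. The 6 markers, contractile genes among them, had 0.36 and 0.36. Counting noise draws r toward 0 for genes with few transcripts, and its part in these medians was not tested.

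**Figure D5:**
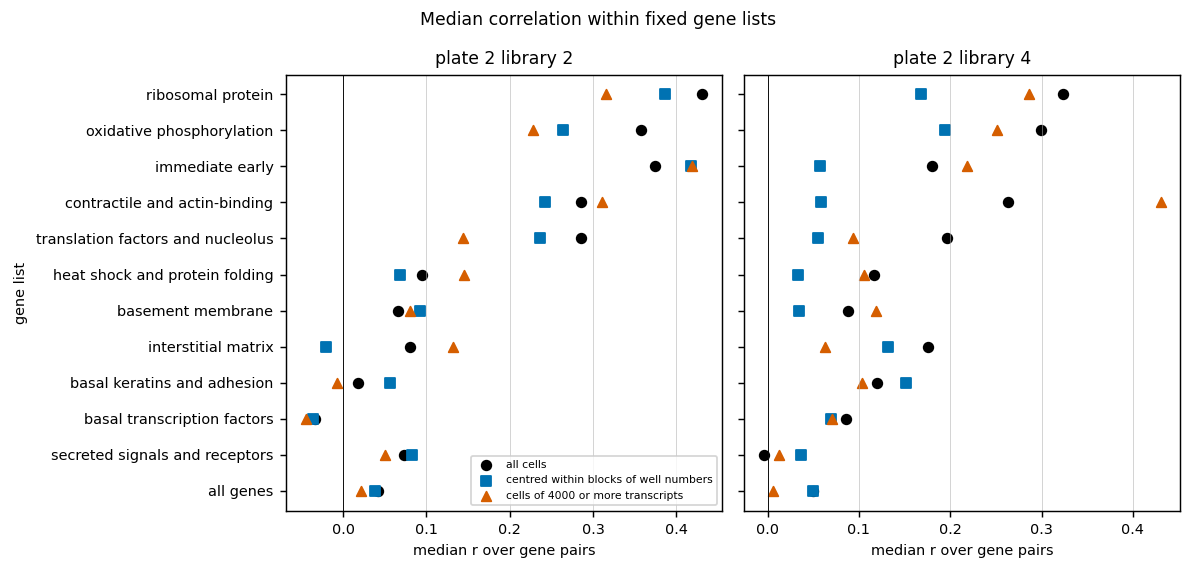
Median Pearson's r over the gene pairs of 11 lists and of all genes, in plate 2 library 2 (left) and library 4 (right), for all cells (circles), after centring within blocks of well numbers (squares) and in cells of 4000 or more transcripts (triangles). The contractile list falls from 0.26 to 0.06 with centring in library 4, and the ribosomal protein list from 0.32 to 0.17.

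Single genes of these lists showed pairs of their own. Col4a1 and Col4a2, chains of the same collagen, had r of 0.69 and 0.77, whereas Col4a1 and Sparc had −0.17 and 0.32. Sparc itself had 0.55 and 0.74 with Acta2. Egr1 and Fos had 0.78 and 0.77, and 0.78 and 0.51 after centring within well blocks. Fos with Acta2 had 0.36 and 0.77. Krt5 had 0.51 and 0.31 with Krt14, 0.19 and 0.54 with Krt17 and 0.27 and 0.19 with Trp63. The chaperonin subunit Cct3 and the co-chaperone Fkbp4 had 0.82 and 0.76. Bri3bp and Dennd5b had 0.82 and 0.83, and 0.48 and −0.22 in the cells thinned to 4000 transcripts, without shallower ones.

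Ribosomal protein genes ran together and against the nuclear RNAs. Rps10 and Rps14 had r of 0.82 and 0.95, and Rpl6 and Rps4x 0.90 and 0.79. Malat1 and Kcnq1ot1 had 0.85 and 0.80, and Kcnq1ot1 and Rps18 −0.80 and −0.82. The summed ribosomal genes and the summed pair of nuclear RNAs had −0.74 and −0.74. The cells of wells 47 and 80 named above held 823 and 701 ribosomal transcripts per 10000, against medians of 1419 and 1451 over their libraries. In cells of 4000 or more transcripts Rps10 and Rps14 had 0.69 and 0.62, Rpl6 and Rps4x 0.48 and 0.26, and Kcnq1ot1 and Rps18 −0.73 and −0.67. Thinning these cells to 4000 transcripts left 0.39 and −0.17, 0.35 and −0.18, and −0.46 and −0.22.

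Grouping the 3218 genes by r in library 2 (average linkage, r of at least 0.4 at the joining height, 5 or more genes) gave 215 modules. Their median r had a median of 0.51 in library 2, which chose them, and 0.063 in library 4, which did not. In library 4, 31 modules had a median of 0.2 or more and 144 one under 0.1. The module with Acta2 held 39 genes, 9 of them from the contractile list and the markers (Acta2, Tagln, Myl9, Myh11, Mylk, Cnn1, Oxtr, Cald1 and Tpm2), together with Krt14, Postn, Igfbp3, Igfbp5, Il17b, Mmp2 and Synm. Its median r was 0.56 in library 2 and 0.22 in library 4, and 71.0% of its 741 pairs were positive in library 4. Ranked by median r in library 4, it was number 24 of the 215 modules, so this repeat is not particular to it. The share of positive pairs over all genes in library 4 alone was not computed.

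Between plates and between library numbers no gene passed edgeR's test. With 2 libraries a side and no animals named, the p-values measure the spread between these libraries. Transcripts were summed over the basal cells of each library, and 2 libraries of plate 2 were set against 2 of plate 1 with edgeR's quasi-likelihood test and Benjamini-Hochberg adjustment, which called 0 of 4576 genes, or 0%. Of these genes 316 had an unadjusted p under 0.05, 157 of them higher on plate 2. DESeq2 called 6, of which 2 were higher on plate 2 (Sgk1 and Thbs1) and 4 lower (Abca8a, Beta-s, C4b and Serpina3n). Library 4 against library 2, with the plate as a term, gave 0 of 4576, or 0%, with 59 genes under an unadjusted p of 0.05 and 0 calls by DESeq2. Leaving out 1 library changed the plate count to between 19 and 644, the latter without plate 1 library 4, which leaves the 4 cells of library 2 to stand for plate 1.

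The contractile list had a median log2 difference of 0.34 between plate 2 and plate 1, the basement membrane list 0.67 and the immediate early list 0.67, beside 0.02 over all genes tested, and 0 members of each passed. The genes named next were chosen after their values were seen. Sgk1, a kinase induced by serum and glucocorticoids, had 0 transcripts in both libraries of plate 1, which allows up to 0.197 per 10000, and 139 and 118 in those of plate 2. Its adjusted p was 0.28 by edgeR, 0.0275 by edgeR with a block by library number and 0.0172 by DESeq2. Thbs1, a matrix protein, had 0, 6, 283 and 276 transcripts (adjusted p = 0.51 by edgeR, 0.0275 with the block and 0.00437 by DESeq2) and Cdkn1a, a brake on the cell cycle, 3, 12, 267 and 169 (adjusted p = 0.63). Postn had 5, 1, 169 and 184 transcripts (adjusted p = 0.64 by edgeR). In these picked genes both libraries of plate 2 lay above both of plate 1, also per 10000 transcripts. How many of all tested genes separate the plates in this way was not counted, so the separation is a description only. The differences did not pass edgeR's test without the block. Other genes went the other way, such as Trf at 2.25 and 1.01 per 10000 on plate 1 and at 0.0511 and 0.171 on plate 2. Between libraries, the contractile list had a median log2 difference of 0.35, library 4 minus library 2, and keratins and adhesion 0.42, beside 0.04 over all genes, with 0 members passing. Krt14, with 5 and 118 transcripts in the libraries numbered 2 and 24 and 168 in those numbered 4 on plates 1 and 2, had a log2 difference of 1.29 ± 0.511 (SE) and an adjusted p of 1.00 by edgeR.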

How the data were processed

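Single cells were profiled with SORT-seq, an automated CEL-seq2, per the labels' protocols, and read as 75 bp pairs. The submitters' processing notes name BWA 0.6.2-r126 and the build mm10, without settings. The authors deposited estimated counts, that is, expected counts of transcript molecules per gene and well, whose values fit a correction for tags of 4 bases drawn more than once; what else was filtered is unknown here. Counts were rounded, 81 spike-in lines dropped and levels scaled to 10000. The table has 14883 gene lines and 0 mitochondrial ones. The members and the 22 gene lists were chosen with earlier results of these data known. Named genes were the 25 most abundant, the 15 of highest Fano factor, the 15 highest pairs, up to 8 per module, up to 6 per list, and the markers. Partners of Acta2, genes against it, low list members and genes of the plate contrast were named after their values were seen. So were genes of the Acta2 module beyond 8. Sums per library were tested with edgeR 4.0.16 (TMM, filterByExpr) in R 4.3.3, with DESeq2 1.42.0 as an alternative; the standard error is derived from the log2 change and its F statistic. The gene-wide fit and the correlations were tested on simulated data. Doublets were not removed. Figures used matplotlib 3.10.9. A few items are not reported here.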

Additional observations from a re-analysis of the deposited data

Results flagged for a closer look

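In libraries 2 and 4, 110 wells met the marker part of the basal rule and fell under the size limits, so the report does not use them. They held 36704 transcripts in all, from 37 to 1477 per well with a median of 245. Over their sum Acta2 stood at 159 per 10000 (585 transcripts), Tagln at 29.4, Col4a1 at 21.5, Krt5 at 7.90 and Cxcl14 at 7.08, with 5 transcripts of Krt8. These wells were chosen by Acta2 and 4 other genes at low totals, which raises the level of those genes. They were also chosen against Krt8, which lowers its level. In libraries 1 and 3, 7 such wells were found.

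Among the kept cells of libraries 1 and 3, 2 met the basal rule. The cell of plate 1 library 3 had 15 marker transcripts among 7783, 10 of them Acta2, and the cell of plate 2 library 1 had 5 among 2404.

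Over the 4 libraries, 83 levels of genes and lists were compared, and in 6 of them a single library lay far from the others. Chance alone gives about 1 in 20. Each time the library was plate 1 library 2, with its 4 cells. The gap to the nearest library, as a share of the whole range, was 0.910 for Eef1a1 (lowest), 0.889 for Flna, which crosslinks actin (lowest), 0.989 for Col1a2 (highest) and 0.953 for Tgfbr3, a TGF-beta receptor (highest). It was 0.981 for the fibroblast list and 0.971 for the nerve and Schwann list, both highest there. Without the cell of well 63 these lists stood at 5.02 and 3.51 per 10000, and Col1a2 at 0.251.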

How the results depend on the processing

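Alternatives on well numbers, on cells of 4000 or more transcripts, on well 63 and, between libraries, on cells of 3000 transcripts were chosen after seeing the data. Against 0 genes between plates, DESeq2 called 6, no filter on low counts 107, and a block by library number (replicate block) 3 (Beta-s, Sgk1 and Thbs1). Library numbers did not pair the plates (r = 0.017 over 4576 genes). Leaving out a library gave 19 to 644: 84 without library 2 and 644 without library 4 of plate 1, 22 without library 2 and 19 without library 4 of plate 2, with the lone sample assumed to vary like the others. Between libraries, no filter called 11 genes. Without well 63 both tests called 0. The cause was not tested. Leaving out a library with the plate term leaves no residual degrees of freedom and could not be fitted. A check set all basal lists of a cell, pooled, against its largest single list of another cell type, the luminal list left out. No cell was led by another list, so leaving such cells out equals the values reported. In plate 1 library 2 the least pooled basal count was 324 and the largest other list 111, so even the cell of well 63 passed. Pooling many basal genes against a single short list favours that outcome, so the check does not settle the type of a cell. Cells under 10 luminal transcripts were too few to use.

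Of the 25 abundant genes 24 stayed at 3000 transcripts and 23 by the median over cells. Against 17 genes of high spread, thinning to 4000 gave 49 and wells 25 to 72 gave 8. Against 1290 pairs, Spearman gave 564, genes in 75% of cells 750, a partial r given the total 761 and centring within well blocks 1040. Thinning gave 114 and wells 25 to 72 alone 11805, with fewer cells by construction. In library 4, r changed sign in wells 25 to 72 for Acta2 with Cnn1 (−0.64), Krt14 (−0.35), Myh11 (−0.22), Tagln (−0.10), Sparc (−0.10), Il17b (−0.18), Myl9 (−0.036), Mest (0.11), Crispld2 (0.09) and Csrp2 (0.06) and for Krt5 with Krt14 (−0.27), on centring for Acta2 with Krt14 (−0.031), Il17b (−0.12) and Sparc (−0.0096), and on thinning for Bri3bp with Dennd5b (−0.22), Rpl6 with Rps4x (−0.18), Rps10 with Rps14 (−0.17) and Krt5 with Trp63 (−0.40) and Krt17 (−0.09). In library 2, Acta2 with Mest changed sign in wells 25 to 72 (0.09). Col4a1 with Sparc in library 4, 0.32, was −0.13 on centring and −0.38 in wells 25 to 72. Pairs with r within 0.2 of 0 over all cells are listed only in part, and Cxcl14 with Krt5 was not recomputed. Depth limits shares of cells with a transcript of low genes.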
